A study of Mus musculus with 10 samples.

Results

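This account covers the genes of 5 chromatin families: Smarc, Arid, Chd, Ino80 and Brd. Every gene of the deposited table was taken whose mouse symbol starts with Smarc, with Ino80, or with Arid, Chd or Brd followed by a digit. The rule used names alone and no measured value, and it found 42 of the 9690 genes in the table. They comprise 11 Smarc, 9 Arid, 9 Chd, 7 Brd and 6 Ino80 genes. RefSeq holds 50 symbols of this form, and the 8 that the table does not list are Arid3c, Brd3os, Brd8dc, Chd5, Smarca1, Smarca5-ps, Smarcd3 and Smarce1-ps1.

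The study measured poly(A) RNA of resting B cells from the spleen of female C57BL/6J mice, with and without the histone demethylase LSD1, the product of Kdm1a. All groups share sex, strain and organ, and none was stimulated. The groups are LSD1 knockout marginal zone B cells (MZB, 2 libraries), wild-type MZB (3 libraries), knockout follicular B cells (FoB, 3 libraries) and wild-type FoB (2 libraries). MZB were sorted as B220+ CD21hi CD1d+ cells without CD23, and FoB as B220+ CD23+ cells without CD1d, both without Thy1.1, F4/80, CD11b, CD93 and GL7. Each library was made from 50000 cells. The labels give no age, no Cre driver and no deleted exons. Nor do the labels tell whether libraries of 1 group stem from different mice, so each p-value describes the spread between libraries, which may be technical.

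Chromatin remodellers are machines built around an ATPase that slides, ejects or exchanges nucleosomes, and so sets which DNA is within reach of transcription factors and polymerase. The Smarc and Arid1 or Arid2 proteins form the BAF and PBAF complexes, Smarca5 drives the ISWI complexes, Chd3 and Chd4 drive NuRD, which also carries histone deacetylases and can associate with LSD1, and Ino80 drives the complex of the same name. Bromodomains read acetylated lysines, and BET proteins such as Brd2 and Brd3 couple that mark to transcription elongation. BAF, NuRD and BET proteins are all known to act in B cell development and activation.

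The values are mRNA molecules per cell, as the deposited table names them. The libraries held 4161051 to 6711847 reads, worked back from the values, and the median gene of a library had 184 to 319 of them. The sum over all genes was 74815.0 to 121070.6 molecules per cell in MZB and 43561.9 to 56437.7 in FoB libraries. For that reason each difference is given per cell and also after rescaling, where each library was divided by a factor between 0.62 and 1.76 that brings the bulk of genes to a common level, so that a rescaled difference is relative to the other genes. Kdm1a stood at 5.38 and 5.94 molecules per cell in the knockout MZB libraries, 6.37, 8.36 and 7.90 in wild-type MZB, 2.04, 2.36 and 1.93 in knockout FoB, and 5.58 and 4.34 in wild-type FoB. It fell in knockout FoB by 1.12 on the log2 scale (limma, Benjamini-Hochberg adjusted p = 4.31e-05). In knockout MZB it did not pass per cell (log2 -0.39, limma adjusted p = 0.118) and fell by 0.69 on the rescaled log2 scale (limma adjusted p = 0.000464). The B cell markers Cd79a, Cd79b, Ms4a1, Cd22 and Pax5 are in the table, and the summed level of 6 MZB markers was 402.33 to 485.61 in MZB and 44.0 to 60.52 in FoB libraries. That of 4 FoB markers was 60.34 to 88.9 in wild-type MZB, 121.06 to 138.13 in knockout MZB and 177.77 to 232.12 in FoB libraries. In bulk RNA of this kind, fewer cells of a type and less RNA per cell cannot be told apart.

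All 42 genes were above 0 in each library, and all passed the filter of at least 0.3 molecules per cell in at least 2 libraries. The thinnest was Ino80dos, with 19 to 60 reads. The value of 1 read falls with exon length across genes, so the values are per length and levels can be set side by side. The median member lay at 5.2 molecules per cell over the 10 libraries, against 3.42 for the median of all genes, and 34 of the 42 lay above that median gene. The NuRD ATPase Chd4 was highest, with a mean of 28.4 molecules per cell. It was followed by Arid1a, the DNA-binding subunit of canonical BAF, at 19.0, and by Smarcd2, a BAF core subunit, at 16.9. Chd8, a remodeller of the Chd6 to Chd9 subgroup, stood at 15.6. The highest Brd gene was the BET gene Brd2 at 13.2. Within the Ino80 family the highest was Ino80d, a subunit of the Ino80 complex, with 7.67 and 8.42 molecules per cell in knockout MZB, 6.96, 8.31 and 7.03 in wild-type MZB, 3.56, 3.60 and 3.73 in knockout FoB, and 4.04 and 3.34 in wild-type FoB. Its MZB libraries all lay above its FoB libraries. The lowest member was Ino80dos, a noncoding transcript next to Ino80d, at 0.914.

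**Figure D1:**
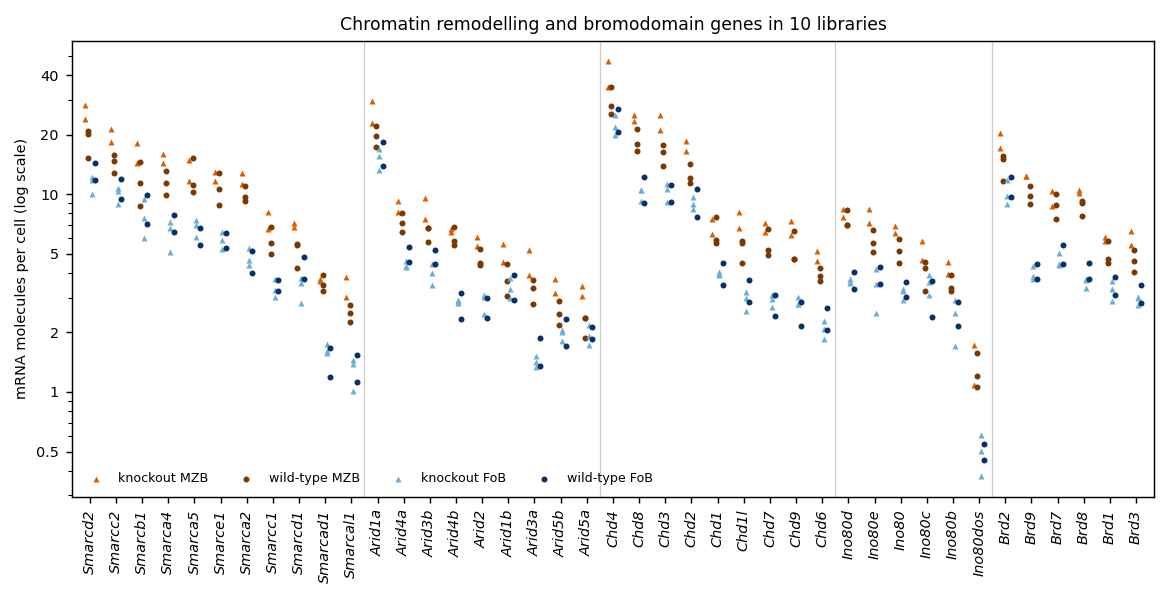
Each point is 1 library, with mRNA molecules per cell on a log axis and 41 of the 42 genes grouped by family and ordered by mean. Chd4 reached 47.0 molecules per cell in a knockout MZB library, Ino80dos stayed below 2, and for most genes the MZB libraries lie above the FoB libraries; after rescaling, which removes the difference in total mRNA, 30 of the 42 wild-type differences are below 0.

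Added up, the 42 genes made 0.401% and 0.411% of the summed mRNA in knockout MZB, 0.413%, 0.405% and 0.385% in wild-type MZB, 0.463%, 0.43% and 0.455% in knockout FoB, and 0.46% and 0.451% in wild-type FoB. The 5 MZB libraries (mean 0.403% ± 0.0112, SD) lay below all 5 FoB libraries (0.452% ± 0.0131, SD). Knockout and wild-type libraries of a cell type overlapped or lay side by side.

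**Figure D2:**
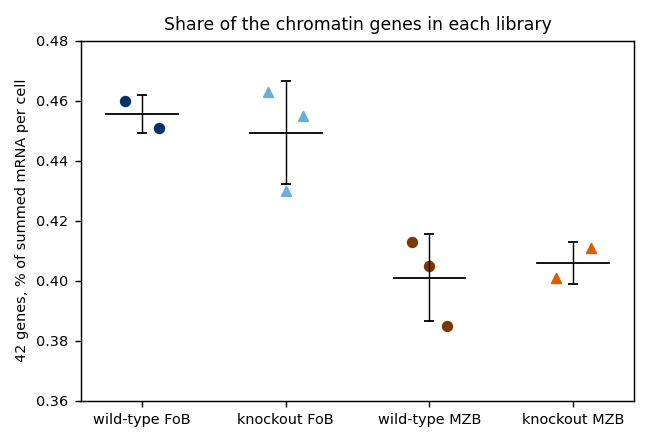
The share of the 42 genes in the summed mRNA per cell of each library, in percent; points are libraries, and the black bars are the mean and SD of a group. The vertical axis starts above 0. The MZB libraries lie between 0.385% and 0.413%, and the FoB libraries between 0.43% and 0.463%.

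The difference between the 2 cell types was taken first in the wild-type libraries. Per cell, 33 of the 42 genes were higher in MZB of wild-type mice, and 0 were lower (limma, adjusted p under 0.05). Of all 9690 genes, 84.2% were higher and 1.67% lower by the same test. Without wild-type FoB library 2, 18 of the 42 were higher, and calls in either direction went from 85.9% to 64.0% of all genes. The median member was 0.65 higher on the log2 scale, and the median gene 0.78. The calls lost without that library included those of Arid4a, Brd1, Brd3, Chd1, Chd1l, Chd2, Chd3, Ino80, Ino80b, Ino80e, Smarca4, Smarcb1, Smarcc2 and Smarcd2, with values of 0.19 to 0.51, and the other 18 passed in each of 17 alternatives without rescaling. Relative to the other genes the picture turned: after rescaling, 20 of the 42 were lower in MZB and 3 higher, where 25.1% of all genes were lower and 24.9% higher. The members' median was -0.21 on the log2 scale, and that of all genes 0.00. The 20 lower genes comprised 6 Arid, 4 Smarc, 4 Brd, 3 Chd and 3 Ino80 genes, and 16 of the 20 passed under each of the 18 alternatives run. By position of the libraries, 26 members lay lower in all 3 wild-type MZB libraries than in both wild-type FoB libraries after rescaling, and 7 lay higher, against 34.9% and 35.2% of all genes. The summed level of 6 cell cycle genes (Mki67, Top2a, Mcm2, Mcm5, Ccnb1 and Cdk1) was 19.4 to 32.56 molecules per cell in wild-type MZB and 5.95 to 7.88 in wild-type FoB, and its part in these differences was not tested.

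**Figure D3:**
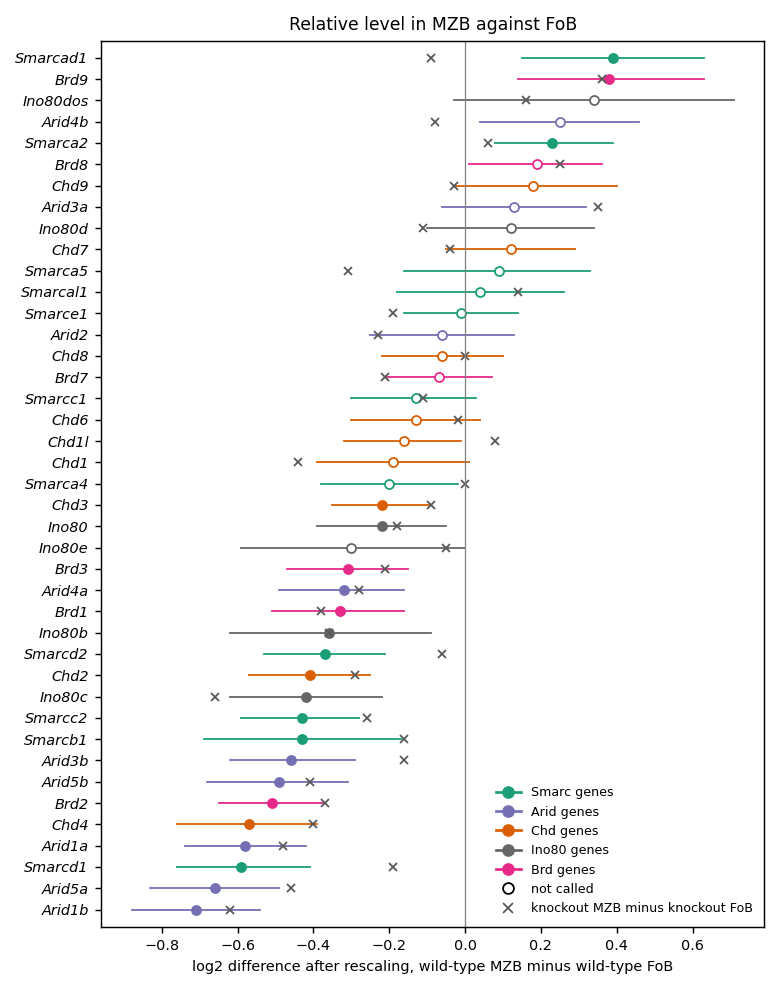
Log2 difference after rescaling for 41 of the 42 genes, wild-type MZB minus wild-type FoB, with its 95% interval from limma; colours mark the families, filled points passed the test, and crosses give the same difference in the knockout libraries. The filled points at the bottom, from Arid1b at -0.71, are lower in MZB relative to other genes although all 42 differences are above 0 per cell.

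Among the DNA-binding subunits that distinguish the BAF complexes, Arid1a and Arid1b, the alternative subunits of canonical BAF, were both relatively lower in MZB. Rescaled Arid1b was 2.71, 3.03 and 2.67 in wild-type MZB and 4.91 and 4.61 in wild-type FoB. The groups did not overlap, and the difference of -0.71 ± 0.08 (log2, SE) was the largest of the 42 (limma adjusted p = 2.6e-05), where the per-cell difference of 0.11 did not pass. Rescaled Arid1a was 15.3, 15.0 and 14.5 in wild-type MZB and 23.1 and 21.9 in wild-type FoB. These did not overlap either (log2 -0.58 ± 0.07, SE, limma adjusted p = 7.3e-05), and per cell the difference was 0.29 and did not pass. Arid2, the corresponding subunit of PBAF, gave a rescaled difference of -0.06 that did not pass, and it was higher per cell by 0.75 on the log2 scale.

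The other Arid genes encode DNA-binding proteins outside BAF. Arid5a, which is known to stabilise mRNAs of inflammatory cytokines, stood after rescaling at 1.67, 1.60 and 1.74 in wild-type MZB and 2.69 and 2.93 in wild-type FoB. All MZB libraries were lower (log2 -0.66 ± 0.08, SE, limma adjusted p = 4.8e-05), with a per-cell difference of 0.12 that did not pass. Its relative Arid5b was lower by -0.49 rescaled, as was Arid3b by -0.46, both with per-cell differences that did not pass. Arid4a, a retinoblastoma-binding protein, was lower by -0.32 rescaled and higher by 0.52 per cell. Arid3a, which binds regulatory DNA of the immunoglobulin heavy chain locus, and Arid4b, the partner of Arid4a in the Sin3 complex, had rescaled differences of 0.13 and 0.25 that did not pass, and both were higher per cell (0.91 and 1.07).

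The BAF core was split. Smarcd1 was lower after rescaling, at 3.76, 3.80 and 4.10 in wild-type MZB and 6.07 and 5.90 in wild-type FoB, with no overlap. Its difference was -0.59 ± 0.08 (log2, SE, limma adjusted p = 0.000143) and was 0.24 per cell, which did not pass. Smarcb1, Smarcc2 and Smarcd2 were also lower by this measure (-0.43, -0.43 and -0.37) and higher per cell (0.43, 0.43 and 0.50), while Smarcc1 and Smarce1 did not pass rescaled (-0.13 and -0.01) and were higher per cell (0.70 and 0.84). Without wild-type FoB library 1 the rescaled call of Smarcb1 was lost (-0.36, limma adjusted p = 0.0962). Of the 2 alternative ATPases, Smarca2 was higher in MZB on both scales (0.23 rescaled and 1.08 per cell), and Smarca4 was higher per cell by 0.66 with a rescaled difference of -0.20 that did not pass (limma adjusted p = 0.0597). Smarca2 is named here after its values were seen, as are Smarcad1, Smarca5 and Smarcal1 below. Its rescaled levels were 8.21, 7.49 and 7.14 in wild-type MZB and 6.50 and 6.33 in wild-type FoB, and its call was lost without wild-type MZB library 1 (0.18, adjusted p = 0.067 by limma), without wild-type FoB library 1 (0.25, limma adjusted p = 0.0619) and without wild-type FoB library 2 (0.22, limma adjusted p = 0.101).

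Smarcad1, a remodeller that works in DNA repair and in keeping heterochromatin silent, was the other Smarc gene higher in wild-type MZB on both scales (0.39 ± 0.11, SE, rescaled, limma adjusted p = 0.0128, and 1.16 per cell). Its rescaled levels were 2.87, 2.67 and 2.56 in wild-type MZB against 2.10 and 1.87 in wild-type FoB, so that the groups were apart. Without wild-type FoB library 2 the call was lost (0.32, limma adjusted p = 0.107). The ISWI ATPase Smarca5 and the replication fork enzyme Smarcal1 did not pass after rescaling (0.09 and 0.04) and were higher per cell (0.94 and 0.79).

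Among the Chd genes, the abundant NuRD ATPase Chd4 was relatively lower in MZB. Rescaled, it stood at 22.6, 23.7 and 20.5 in wild-type MZB and at 33.9 and 32.4 in wild-type FoB. The groups were apart (log2 -0.57 ± 0.08, SE, limma adjusted p = 0.000231), and the per-cell difference of 0.30 did not pass. Chd3, the alternative ATPase of NuRD, was lower by -0.22 rescaled, a call lost without wild-type FoB library 2 (-0.19, limma adjusted p = 0.0983), and higher by 0.65 per cell. Chd2, which like Chd1 accompanies transcribing polymerase, was lower by -0.41 rescaled and higher by 0.45 per cell. The remaining 6, which are Chd1, Chd1l, Chd6, Chd7, Chd8 and Chd9, ranged from -0.19 to 0.18 after rescaling without a call, and all 6 were higher per cell (0.64 to 0.99).

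In the Ino80 family, Ino80b, Ino80c and the ATPase Ino80 itself were lower after rescaling (-0.36, -0.42 and -0.22). Per cell they differed by 0.45, 0.39 and 0.60, of which that of Ino80c did not pass. The rescaled calls of Ino80 and Ino80b were lost with the replicate number as a block (-0.22, limma adjusted p = 0.0702, and -0.26, limma adjusted p = 0.0524) and with median scaling (-0.17 and -0.31), and that of Ino80b with limma voom (-0.39, adjusted p = 0.0522). Each was also lost without wild-type FoB library 1 (-0.26 and -0.32), wild-type FoB library 2 (-0.18 and -0.39) or wild-type MZB library 3 (-0.20 and -0.31), Ino80 also without wild-type MZB library 1 (-0.23) and Ino80b also without wild-type MZB library 2 (-0.35). Ino80d, Ino80e and Ino80dos did not pass after rescaling (0.12, -0.30 and 0.34) and were higher per cell.

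The BET genes Brd2 and Brd3 were relatively lower in MZB. Rescaled Brd2 was 10.3, 10.6 and 11.1 in wild-type MZB and 15.4 and 15.3 in wild-type FoB. The MZB libraries were the lower ones (log2 -0.51 ± 0.06, SE, limma adjusted p = 6.7e-05), and the per-cell difference of 0.35 did not pass. Brd3 was lower by -0.31 rescaled and higher by 0.51 per cell. Brd1, a scaffold of histone acetyltransferase complexes, was lower by -0.33 rescaled and higher by 0.49 per cell. Brd9, the bromodomain subunit of noncanonical BAF, went the other way on both scales, with rescaled levels of 7.91, 6.68 and 8.09 in wild-type MZB and 5.57 and 5.86 in wild-type FoB. These did not overlap (log2 0.38 ± 0.11, SE, rescaled, limma adjusted p = 0.0142, and 1.22 per cell), although without wild-type FoB library 1 the rescaled call was lost (0.35, limma adjusted p = 0.0912). Brd7, which belongs to PBAF, and Brd8, a subunit of the TIP60 acetyltransferase complex, did not pass after rescaling (-0.07 and 0.19) and were higher per cell (0.78 and 1.03).

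The same difference between cell types was then taken in the knockout libraries, which share no library with the comparison above. This comparison was added after seeing the data. Per cell all 42 genes were higher in knockout MZB than in knockout FoB, as were 97.3% of all genes. After rescaling, 17 members were lower and 3 higher, against 17.1% and 18.1% of all genes. Of the 20 genes lower in wild-type MZB, 20 had the same sign in the knockout libraries and 13 passed there, again with Arid1b (-0.62), Arid1a (-0.48), Arid5a (-0.46), Chd4 (-0.40) and Brd2 (-0.37), all 5 higher per cell in the knockout libraries. Smarcd1 gave -0.19 and did not pass. Of the 3 higher genes, Brd9 passed again (0.36), Smarca2 (0.06) did not pass, and Smarcad1 had the opposite sign (-0.09) and did not pass. How often genes at large keep their sign or call between the genotypes was not counted. The agreement therefore cannot be read as a trait of the members. Taking both genotypes, 17 members lay lower in each of the 5 MZB libraries than in each of the 5 FoB libraries after rescaling, against 18.6% of all genes. Another 4, which are Arid3a, Brd8, Brd9 and Smarca2, lay higher in all, against 17.9% of all genes. Per cell 33 members were higher in all 5, against 81.3% of all genes.

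Ratios of related genes within a library do not depend on how libraries are scaled, and 12 such pairs were compared, of which 10 are described. Between the 5 MZB and the 5 FoB libraries, 8 of the 12 log2 ratios differed (two-sided exact permutation test over 252 arrangements, Benjamini-Hochberg adjusted over the 12 pairs). The smallest p this design allows is 0.00794. Pairs of other genes were not compared, so no share over all genes stands beside this count. After rescaling, 17.9% of all genes lay higher and 18.6% lower in all 5 MZB than in all 5 FoB libraries. The 8 of 12 therefore cannot be read as a trait of related genes. The largest difference was that of Arid3a to Arid3b: the ratio was 0.522 and 0.549 in knockout MZB, 0.487, 0.542 and 0.497 in wild-type MZB, 0.354, 0.342 and 0.386 in knockout FoB, and 0.356 and 0.305 in wild-type FoB. All MZB libraries lay above all FoB libraries (log2 difference 0.577, exact permutation adjusted p = 0.0159).

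The ratio of Brd7, a subunit of PBAF, to Brd9, a subunit of noncanonical BAF, was 0.705 and 0.839 in knockout MZB, 0.840, 1.02 and 0.799 in wild-type MZB, 1.02, 1.30 and 1.18 in knockout FoB, and 1.26 and 1.19 in wild-type FoB. It was lower in MZB (log2 difference -0.506, exact permutation adjusted p = 0.0238), with 1 MZB and 1 FoB library overlapping at 1.02. In words, the transcript of Brd9 was at or above that of Brd7 in 4 of the 5 MZB libraries and below it in each FoB library. The ratio describes these 2 transcripts and not the amounts of the complexes. Bicra, a scaffold of noncanonical BAF, was lower in MZB after rescaling in both genotypes. The promoters of Brd7 and Brd9 are shown because Brd9 was the 1 member called higher in MZB after rescaling in both genotypes, and Brd7 is the gene it is set against. Each window runs from 250 bases before to 50 bases after the start of the transcript, on GRCm38.p6 and from RefSeq: Brd7 at chr8:88362123-88362422 on the minus strand and Brd9 at chr13:73937561-73937860 on the plus strand. Capitals mark GGGCGG, the GC box bound by Sp1-type factors, on either strand, where it reads CCGCCC.
Brd7: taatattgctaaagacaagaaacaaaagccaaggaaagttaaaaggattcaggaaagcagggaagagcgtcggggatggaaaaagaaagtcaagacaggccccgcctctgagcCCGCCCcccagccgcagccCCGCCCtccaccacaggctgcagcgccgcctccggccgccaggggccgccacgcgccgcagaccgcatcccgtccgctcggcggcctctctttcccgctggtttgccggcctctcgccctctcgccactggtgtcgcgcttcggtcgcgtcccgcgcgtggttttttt
Brd9: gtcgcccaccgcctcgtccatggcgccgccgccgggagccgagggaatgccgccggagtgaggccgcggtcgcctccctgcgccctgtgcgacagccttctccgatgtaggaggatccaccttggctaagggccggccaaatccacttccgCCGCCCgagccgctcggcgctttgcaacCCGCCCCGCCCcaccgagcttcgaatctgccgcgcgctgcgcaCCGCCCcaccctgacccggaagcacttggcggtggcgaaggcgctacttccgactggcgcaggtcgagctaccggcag
The Brd7 window holds 2 such matches and 31 CG dinucleotides, and the Brd9 window holds 4 matches, of which 2 overlap, and 40 CG dinucleotides. Promoters were found for 30 of the 42 members. At least 1 match was present in 25 of the 30 (83.3%), in 66.1% of the 7753 genes of the table with a promoter, and in 35.9% of all 27025 promoters. A match of these letters is a description of the window and says nothing on binding.

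The other pairs that differed were closer. The ratio of Arid4a to Arid4b lay between 1.17 and 1.39 in MZB and between 1.48 and 1.95 in FoB libraries (log2 difference -0.398), and that of Chd3 to Chd4, the 2 NuRD ATPases, between 0.509 and 0.609 in MZB and between 0.410 and 0.485 in FoB (0.313). For Smarcc1 to Smarcc2, the paired BAF scaffold subunits, it was 0.36 to 0.433 in MZB and 0.305 to 0.356 in FoB (0.236). For Arid1a to Arid1b it was 4.95 to 5.66 in MZB and 4.46 to 4.75 in FoB (0.186). Cell types did not overlap for these 4 pairs (exact permutation adjusted p = 0.0159 for each). Smarcd1 to Smarcd2 differed with overlap, at 0.254 to 0.286 in MZB and 0.283 to 0.335 in FoB (-0.183, exact permutation adjusted p = 0.0238). The ATPases Smarca2 to Smarca4 (0.246, exact permutation adjusted p = 0.0635), and the pairs Arid5a to Arid5b and Chd1 to Chd2 did not pass. The genotype passed for 0 of the 12 ratios in the exact permutation test within cell types, which had 100 arrangements and a smallest unadjusted p of 0.08, for Chd1 to Chd2. The exact permutation test cannot go below p = 0.01 in this design, or 0.12 adjusted where 1 pair alone differs, so the 0 says little. The ratio of Chd1 to Chd2 was 0.380 and 0.402 in knockout MZB and 0.498, 0.542 and 0.491 in wild-type MZB, with no overlap (log2 -0.383), and differed by 0.0128 in FoB.

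**Figure D4:**
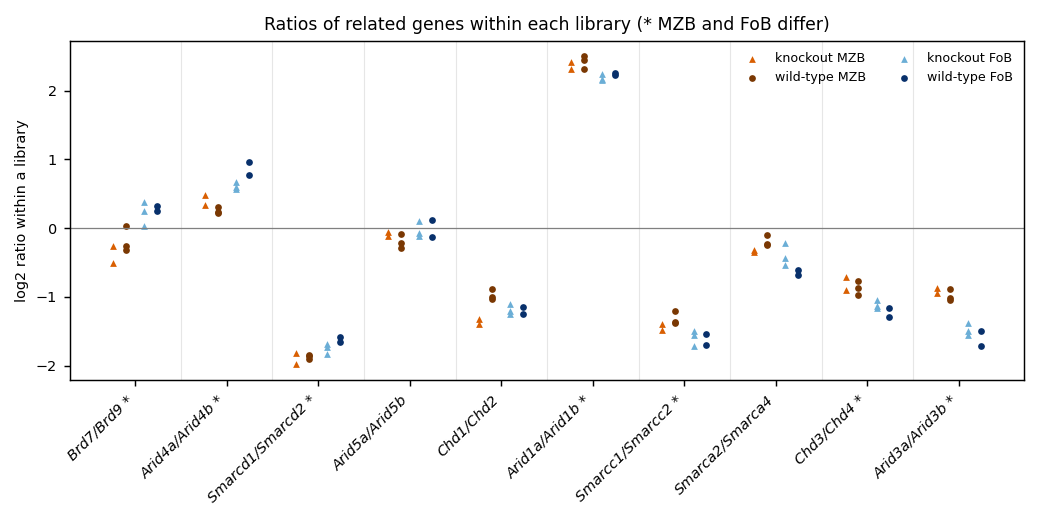
Log2 ratio of 2 related genes within each library, for 10 of the 12 pairs; points are libraries, colours and shapes mark the 4 groups, and a star marks pairs that differ between the 5 MZB and the 5 FoB libraries. For Arid3a/Arid3b the MZB points lie above the FoB points with no overlap, and for Arid5a/Arid5b the points of the cell types overlap.

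The effect of losing LSD1 was taken first in MZB. Per cell, 1 of the 42 was higher without LSD1 (Arid5a) and 0 were lower, where 13.3% of all genes were higher and 0.702% lower (limma, adjusted p under 0.05). Without wild-type MZB library 2 it was 10, and 28.8% of all genes were called then. All 42 estimates were above 0, between 0.05 (Smarcad1) and 0.53 (Chd3) on the log2 scale, and 18 had an unadjusted p under 0.05. Their median of 0.36 stood beside 0.32 for all genes. In 29 members both knockout libraries lay above all 3 wild-type libraries, as they did for 56.9% of all genes. After rescaling, limma called 0 of the 42, against 5.26% of all genes. At an unadjusted p under 0.05 there were 4, of which 2 were higher and 2 lower. The share of all genes at that unadjusted threshold was not counted, so the 18 and the 4 cannot be read as a result about the members. Limma voom on the recovered reads also called 0 after rescaling, against 11.4% of all genes. The rescaled differences ran from -0.24 for Smarcad1 to 0.21 for Arid5a, with a median of 0.04, against 0.02 for all genes. The 95% intervals of the 42 lay between -0.52 and 0.44, so that in this fit none reached a 1.5-fold difference in either direction. On this scale the 2 knockout libraries were both the highest for 13 members and both the lowest for 7, against 24.3% and 21.3% of all genes.

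Arid5a stood at 3.05 and 3.45 molecules per cell in knockout MZB and at 1.88, 2.35 and 2.35 in wild-type MZB. Both knockout libraries were the higher ones. The difference was 0.51 ± 0.18 (log2, SE, limma adjusted p = 0.0495) per cell and 0.21 ± 0.08 (SE, limma adjusted p = 0.148) after rescaling, and the per-cell p ranged from 0.0314 to 0.528 over the alternatives. The call was lost when either knockout MZB library was left out (0.59 without library 1 and 0.43 without library 2), or wild-type MZB library 1 (0.42), wild-type MZB library 3 (0.56) or knockout FoB library 1 (0.51). It was also lost with the replicate number as a block (0.50, limma adjusted p = 0.172), a pseudocount of 0.1 (limma adjusted p = 0.0625), the compared groups alone (limma adjusted p = 0.064) and no intensity trend (limma adjusted p = 0.0535), where the 1 member called was Chd3 instead. In FoB Arid5a stood at 1.92, 2.17 and 1.73 in knockout and 2.14 and 1.86 in wild-type libraries, where the groups overlapped. Its promoter window is shown because it is the 1 member called for LSD1, at chr1:36307483-36307782 on the plus strand of GRCm38.p6 (RefSeq), with GGGCGG in capitals.
Arid5a: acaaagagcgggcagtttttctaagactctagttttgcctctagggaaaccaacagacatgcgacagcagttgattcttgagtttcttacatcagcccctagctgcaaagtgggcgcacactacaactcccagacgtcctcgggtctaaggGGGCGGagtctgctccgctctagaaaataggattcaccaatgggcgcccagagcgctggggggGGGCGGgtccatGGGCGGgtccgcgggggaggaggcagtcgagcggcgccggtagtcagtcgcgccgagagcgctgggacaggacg
This window holds 3 matches, and its 22 CG dinucleotides stand beside a median of 25 in the members' windows and 22 in those of the table's genes.

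Chd3 had the smallest p after rescaling and is named here for that, after its values were seen. It stood at 21.2 and 25.2 molecules per cell in knockout MZB and 13.96, 17.7 and 16.4 in wild-type MZB, with the knockout libraries above. Neither the per-cell difference (0.53, limma adjusted p = 0.0565) nor the rescaled one (0.20, limma adjusted p = 0.0801) passed. Per cell it passed with a pseudocount of 1 (0.51), with no intensity trend (limma adjusted p = 0.0488), with limma voom (0.54), without wild-type MZB library 2 (0.60) and without either wild-type FoB library (limma adjusted p = 0.0491 for each). Chd4, its alternative in NuRD, stood at 34.8 and 47.0 in knockout MZB and 25.5, 34.8 and 27.8 in wild-type MZB, where knockout library 1 and wild-type library 2 were level (0.47 per cell and 0.14 rescaled, neither called). Smarcd2 stood at 23.9 and 28.4 against 15.2, 20.2 and 20.8 (0.48 and 0.16), and Brd2 at 17.2 and 20.4 against 11.6, 15.6 and 15.0 (0.42 and 0.09). In both the knockout libraries were higher per cell, and neither passed on either scale. Arid1a, which lies 2.79 Mb from Kdm1a on chromosome 4, stood at 22.8 and 29.8 against 17.3, 22.1 and 19.6 (0.41 and 0.08, not called). The knockout MZB libraries also differed in other cell markers: the cell cycle genes summed to 33.5 to 46.95 molecules per cell against 19.4 to 32.56 in wild-type MZB, and Itgam with Ly6c2, the 2 macrophage and monocyte markers of 6 in the table, to 4.36 to 6.88 against 0.35 to 0.74. Flt3 with Cst3, the dendritic cell markers in the table, summed to 19.55 to 26.44 against 10.59 to 13.94, Lck, the T cell marker, to 7.39 to 8.09 against 3.8 to 4.54, and Klrd1, the NK cell marker, to 0.96 to 1.24 against 0.1 to 0.55. After rescaling, limma called 0 of the 6 cell cycle genes and not Klrd1. It called the 2 macrophage and monocyte markers, the 2 dendritic cell markers and Lck higher, where 5.26% of all genes were called in either direction. The defining markers Cd3e, Csf1r, Adgre1, Itgax and Ncr1 are not in the table. The sort excluded Thy1.1, F4/80 and CD11b. The part of these marker genes in the values was not tested.

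**Figure D5:**
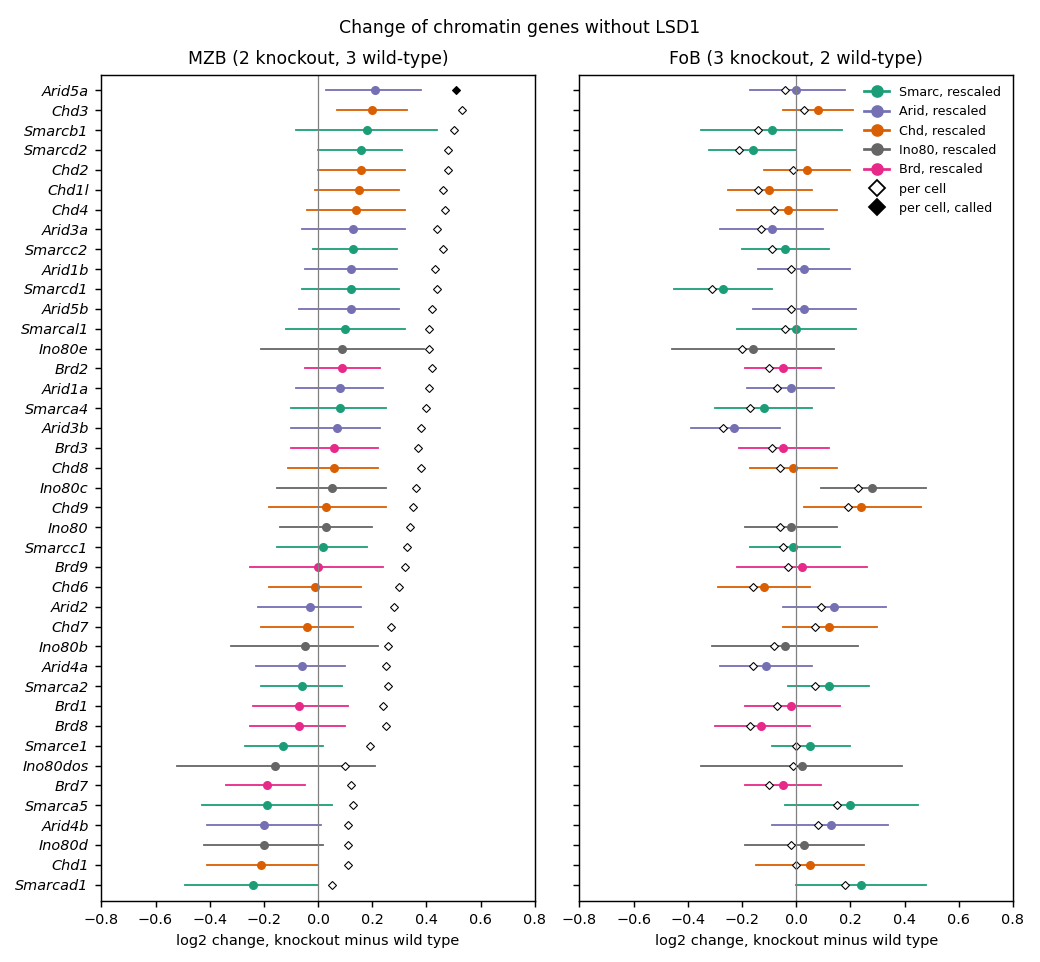
Log2 change of 41 of the 42 genes without LSD1, in MZB on the left and FoB on the right; coloured points with 95% intervals are rescaled, and diamonds are per cell, black where called. In MZB every diamond lies to the right of 0 while the rescaled points lie on both sides, and the 1 black diamond is Arid5a.

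In FoB the same genes were compared between 3 knockout and 2 wild-type libraries. Per cell limma called 0 of the 42, against 0.712% of all genes, with 0 at an unadjusted p under 0.05 and 0 by limma voom. After rescaling limma again called 0, against 0.588% of all genes, with 4 at an unadjusted p under 0.05 and 0 by limma voom. The share of all genes at that unadjusted threshold was not counted here either. The members' median was -0.06 per cell and -0.01 rescaled, beside -0.05 and -0.01 for all genes. Rescaled differences ran from -0.27 for Smarcd1 (limma adjusted p = 0.208) to 0.28 for Ino80c (limma adjusted p = 0.229), and the 95% intervals lay between -0.46 and 0.48. After rescaling, knockout libraries lay above wild-type ones for 9 members and below them for 6, against 14.9% and 16.3% of all genes. Chd4 stood at 21.8, 25.2 and 20.01 molecules per cell in knockout and 27.0 and 20.5 in wild-type FoB, and Arid1a at 15.7, 16.9 and 13.3 against 18.4 and 13.9. In both genes the knockout values fell within or below the wild-type range, and the groups overlapped. Summed Itgam and Ly6c2 were 2.45 to 3.24 molecules per cell in knockout and 0.34 to 0.88 in wild-type FoB, and Klrd1 was 0.07 to 0.38 against 0 to 0.03, both without overlap, and their part in the values was not tested.

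Whether the effect of the knockout differs between MZB and FoB was tested as a difference of the 2 effects. Limma called 0 of the 42 per cell, against 2.34% of all genes, with 9 at an unadjusted p under 0.05 and 0 by limma voom. After rescaling it called 0, against 0.31% of all genes, with 7 at an unadjusted p under 0.05. The share of all genes at that unadjusted threshold was not counted, so the 9 and the 7 cannot be read as a result about the members. On the rescaled scale limma voom called 1 member, Smarcad1, against 6.22% of all genes. The difference of Smarcad1 was -0.55 (adjusted p = 0.0455 by limma voom), where limma on log values gave -0.48 ± 0.16 (SE, adjusted p = 0.123). Smarcd1 had the smallest p on both scales (0.75 per cell, limma adjusted p = 0.0966, and 0.39 rescaled, limma adjusted p = 0.103), and passed per cell without wild-type MZB library 2 (0.81, adjusted p = 0.0476 by limma). Its rescaled levels were 4.42 and 4.09 in knockout and 3.76, 3.80 and 4.10 in wild-type MZB, and 5.26, 4.96 and 4.52 in knockout and 6.07 and 5.90 in wild-type FoB. Knockout MZB libraries overlapped the wild-type range and knockout FoB libraries lay below it.

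The partners of these proteins were looked at through 7 lists that the name rule does not reach. They are set between the wild-type cell types first, where 24.9% of all genes were higher and 25.1% lower after rescaling and 84.2% were higher per cell. Of 13 BAF and PBAF subunits in the table, 2 were higher and 4 lower in MZB after rescaling, and 10 were higher per cell. Bicra, a scaffold of noncanonical BAF with Brd9, was lower by -1.01 ± 0.10 (SE, limma adjusted p = 1.3e-05), and its per-cell difference of -0.17 did not pass. Bcl7a, a BAF subunit known from B cell lymphoma, was higher on both scales (0.92 rescaled, 1.75 per cell). Of 12 NuRD subunits, 2 were higher and 6 lower after rescaling and 10 higher per cell: the methyl-CpG-binding subunit Mbd2 was lower by -0.44 rescaled and higher by 0.42 per cell, and the subunits Mta2 and Gatad2b were lower rescaled (-0.48 and -0.55) with per-cell differences of 0.39 and 0.30 that did not pass.

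Of 9 ISWI partners, 0 were higher and 3 lower after rescaling, and 7 were higher per cell. The 3 lower ones were Bptf, the large subunit of NURF (-0.54), Cecr2 (-0.69) and Chrac1 (-0.29), and their per-cell differences were 0.31, 0.04 and 0.48, of which that of Chrac1 passed. The rescaled call of Chrac1 was lost with the replicate number as a block (-0.25, limma adjusted p = 0.0626), and on leaving out wild-type MZB library 3 (-0.26), wild-type FoB library 1 (-0.34) or wild-type FoB library 2 (-0.24). Of 24 subunits of the INO80, SRCAP and TIP60 complexes, 1 was higher and 12 lower after rescaling, with 22 higher per cell. The acetyltransferase Kat5 and the INO80 subunit Mcrs1 were among the lower ones by this measure (-0.44 and -0.69), with per-cell differences of 0.40, which passed, and 0.14, which did not. Of 10 other SNF2-family ATPases, 7 were higher and 0 lower after rescaling and all 10 higher per cell. In the knockout libraries 4 were higher and 0 lower after rescaling, where 18.1% of all genes were higher and 17.1% lower. The largest differences in wild-type libraries were those of Hells (1.43 ± 0.15, SE, limma adjusted p = 2.2e-05), which works in DNA methylation, Zranb3 (0.91) and Rad54l (0.86), which work at replication forks and in recombination. Rad54l and Zranb3 are low genes whose rescaled value depended on the pseudocount, from 0.41 and 0.52 with a pseudocount of 1 to 1.26 and 1.16 with 0.1, and was 1.66 and 1.37 with limma voom. Per cell these 3 were higher by 2.16, 1.47 and 1.30. The cell cycle genes given above were also higher in MZB, and their part was not tested. Of 22 other bromodomain genes, 4 were higher and 7 lower rescaled and 17 higher per cell, with Brpf3 (-1.05) and the acetyltransferase Crebbp (-0.59) lower and Sp140, a lymphoid nuclear body protein, higher (0.70). Per cell Brpf3 and Crebbp did not pass (-0.26 and 0.26), and Sp140 was higher by 1.57. Of 8 genes of P-TEFb and its partners, 1 was higher and 3 lower rescaled, among them the elongation kinase Cdk9 (-0.30 rescaled, 0.55 per cell), and all 8 were higher per cell.

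Without LSD1, 5 of the 98 genes of these lists (5.1%) passed in MZB after rescaling, near the 5.26% of all genes, so the count is no result about the lists. Cecr2, an ISWI partner with a bromodomain, rose from 1.33 ± 0.192 (SD, n = 3) to 3.09 ± 0.175 molecules per cell (SD, n = 2), by 0.73 ± 0.09 on the rescaled log2 scale (SE, limma adjusted p = 0.00194). Wild-type FoB stood at 1.28 ± 0.133 (SD, n = 2). Cecr2 passed under each of the 18 alternatives, and also per cell (1.06). The difference between its effects in MZB and FoB passed per cell (0.95) and not after rescaling (0.57). Btaf1, an ATPase that removes TATA-binding protein from DNA, fell by 0.65 rescaled (limma adjusted p = 0.0142), a call lost without knockout MZB library 2 or wild-type MZB library 1, where it gave -0.55 (limma adjusted p = 0.182) and -0.61 (limma adjusted p = 0.0577). Uchl5 and Actr6, of the INO80 and SRCAP complexes, and Bcl11a, a B-lineage transcription factor found in BAF, fell by 0.49, 0.44 and 0.33 rescaled. The calls of Actr6 (-0.52 to -0.32) and Bcl11a (-0.37 to -0.28) were each lost when any 1 of the 5 MZB libraries was left out and with the replicate number as a block (limma adjusted p = 0.0782 and 0.114), that of Bcl11a also with no intensity trend and without either wild-type FoB library, and that of Uchl5 (-0.60 to -0.40) for each but wild-type MZB library 3. Per cell none of Btaf1, Uchl5, Actr6 and Bcl11a passed (-0.35, -0.20, -0.17 and -0.01). Bicra (0.55), the NuRD subunit Cdk2ap1 (0.63), the INO80 ATPase Ruvbl1 (0.63) and the 7SK-binding protein Larp7 (0.61) were higher per cell in knockout MZB and did not pass after rescaling. By the same per-cell test 13.3% of all genes were higher, so these calls are no result about the lists. In FoB, limma called 0 genes of the 7 lists on either scale.

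The table does not come with a statement on the strand used for counting, so members that overlap another gene of the table carry some uncertainty: Arid4a, Brd2 (with H2-DMa), Brd7 (with Adcy7), Brd8, Chd1l, Chd8, Ino80dos, Ino80e and Smarca2.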

How the data were processed

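Poly(A) RNA of 10 libraries was measured. The deposited table holds a signal value, mRNA molecules per cell, for 9690 genes; per the submitters' processing notes STAR and mm10 were used. No label states the counter, its strand setting, the annotation, the gene filter or the factor from reads to molecules. Entrez identifiers were matched to RefSeq symbols on GRCm38.p6 for 9681 genes, and 9 were not matched. Values were whole multiples of 1 read for 100% of genes (tolerance 0.01 reads), and limma voom on those reads, the only count test run, called 1530 genes in knockout MZB per cell. Replicates of a group were never identical (0 of 8 pairs), and their chi-square per gene was 1.9 to 7.17, more than counting error gives.

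Differences were tested with limma 3.58.1 (R 4.3.3) on log2(value + 0.3) over all genes and libraries, with eBayes and an intensity trend, two-sided, Benjamini-Hochberg adjusted over 9690 genes at 0.05; low genes are understated on this scale. Rescaling used a trimmed mean of log-ratios (trims 0.3 and 0.05). Prior degrees of freedom were 86.9 per cell and 4.97 rescaled, and an error in the molecules-per-cell factor, which moves a whole library, can make per-cell p-values too small. Tested on simulated data for MZB among 9690 genes, limma recovered 19% of 100 genes at 1.5-fold and 83% at 2-fold, with 9 false calls. The simulated reads had the same dispersion for every gene and no shift of whole libraries. These rates therefore check the procedure and do not give its power on either scale of the measured data. Python 3.11.15, pandas 2.3.3 and matplotlib 3.10.9 made tables and plots.

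The members and lists were chosen with earlier results of these data known. Values per library are given for up to 6 members with the largest rescaled difference among those called in a comparison, for per-cell calls where fewer than 3 were called rescaled, for the highest member of each family and for pairs whose ratio passed. From other lists up to 3 genes with the smallest p are named. Of the other marker lists, 1 of 7 T cell genes is in the table (Lck, 2.7 to 4.13 molecules per cell in FoB), 2 of 6 dendritic cell genes (10.05 to 15.48 in FoB), 1 of 4 NK cell genes, 2 of 5 plasma cell genes (13.43 to 44.95 in all), and 0 of 4 erythroid and 0 of 3 neutrophil genes. The cell cycle genes summed to 4.7 to 5.82 in knockout FoB. The values of 1 member, and of pairs with it, are not reported here by name, though it is part of the counts.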

Additional observations from a re-analysis of the deposited data

How the results depend on the processing

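The count of members higher per cell in knockout MZB, 1 in the fit reported, was 2 with a pseudocount of 1, 0 with a pseudocount of 0.1, 0 after rescaling, 0 with the compared groups alone and 3 with limma voom, and ranged from 0 to 10 when each library was left out, with 10 without wild-type MZB library 2, where 2791 of all genes were called against 1356. Calls over all genes, in either direction, were 936 (9.66%) with a pseudocount of 0.1 and 1144 (11.8%) with the compared groups alone. They went down to 484 (4.99%) without wild-type MZB library 1, and lower still in a fit that left 1 knockout MZB library. The 33 members higher per cell in MZB than in FoB of wild-type mice became 23 after rescaling, of which 3 were higher and 20 lower, and ranged from 18 to 37 when each library was left out, with 18 without wild-type FoB library 2. On the rescaled scale that count ranged from 18 to 27. The difference between knockout effects gave 0 to 1 members per cell when each library was left out. The 1 came where 7.68% of all genes were called. Limma voom on rescaled libraries also gave 1, with 6.22% of all genes called. The cause of these shifts was not tested. Over all genes, the calls in knockout MZB were 2078 with a pseudocount of 1 and 510 rescaled, and the latter was 1100 with voom, 906 with the compared groups alone, 267 with the block and 56 to 947 leaving out a library. In FoB the 69 per cell became 39 to 123 and the 57 rescaled 25 to 69 leaving out a library, and 105 with voom, 30 with the groups alone and 37 with the block. The 227 for the difference between effects became 421 with a pseudocount of 1, 134 with 0.1, 110 with the block and 59 to 744 leaving out a library, and the 30 rescaled became 603 with voom, 4 with the block and 1 to 338. Genes called higher per cell in wild-type MZB that turned negative after rescaling were Chd1 (-0.19), Smarca4 (-0.20), Smarcb1 (-0.43), Smarcc1 (-0.13), Brd7 (-0.07), Smarce1 (-0.01), Brd3 (-0.31), Chd8 (-0.06), Chd1l (-0.16), Smarcc2 (-0.43), Ino80 (-0.22), Ino80b (-0.36), Chd6 (-0.13), Arid2 (-0.06), Smarcd2 (-0.37), Chd3 (-0.22), Brd1 (-0.33), Ino80e (-0.30), Arid4a (-0.32) and Chd2 (-0.41). These follow from the rescaling, which moves the median of all genes from 0.78 to 0.00. Same-numbered knockout and wild-type libraries correlated at 0.187 and 0.149 in MZB and at 0.061 and 0.006 in FoB after group means were taken off, with 2 shared numbers per comparison. Different-numbered libraries gave -0.187 to 0.01 in MZB and -0.061 to 0.052 in FoB. In a group of 2 libraries the values left are mirror images, which forces many of these correlations. The check therefore cannot decide on pairing, and the main fit did not pair libraries by number. With the replicate number as a block, 0 members were called in knockout MZB per cell (528 of all genes) and 0 in the other knockout comparisons, and 31 per cell and 21 rescaled between the wild-type cell types. The count of ratios that differ between cell types was 8 to 9. At these read depths the low member Ino80dos is the least precise.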
